A study of Mus musculus with 6 samples.

Results

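The ErbB family in the lens is described here through 10 genes: the 4 receptors Egfr, Erbb2, Erbb3 and Erbb4, the 5 ligands Nrg1, Nrg4, Tgfa, Egf and Areg, and the receptor inhibitor Errfi1. They were found by symbol among the 41449 rows of the deposited table, and all 10 had 1 row each. Total RNA of microdissected lenses was sequenced from mice 2 months old, in 6 libraries made from 2 lenses each. The 3 FNcKO libraries came from fibronectin conditional knockout mice of a mixed C57BL/6, 129 and FVB/N background, and the 3 WT libraries came from wild-type C57BL/6 mice. The Cre driver and the floxed part of the gene were not named in the labels, which call the 3 libraries of a genotype biological replicates. Every genotype difference below is therefore one of genotype and strain background together, which cannot be told apart.

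ErbB receptors are cell-surface tyrosine kinases that pair with each other when an EGF-like ligand binds. EGF, TGF-alpha and amphiregulin (Areg) bind the EGF receptor, neuregulins bind ErbB3 and ErbB4, ErbB2 has no known ligand of its own and acts as a partner, and ErbB3 has a weak kinase. EGF-type ligands stimulate the growth of lens epithelial cells in culture, and fibronectin-bound integrins are known to act together with the EGF receptor in other cells.

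The members were chosen by a list of symbols drawn up with the FNcKO and WT FPKM values of these libraries already known, Erbb4 first among them. Their FNcKO and WT values are therefore given as a description, with no test. Levels are in FPKM, a fragment number divided by transcript length and library size, and can be compared between genes. Folds are ratios of mean FPKM, and log2 changes are FNcKO minus WT of log2(FPKM + 1), so changes of genes with low values come out too small. Whole lenses were sequenced, so fewer cells of a type and less RNA per cell cannot be told apart. The libraries held an estimated 19600000 to 21700000 fragments in FNcKO and 26000000 to 31300000 in WT. Of 9 lens fiber markers, 8 had a value in every library. These 8 summed to 104773 to 113840 FPKM in FNcKO and 108847 to 112222 FPKM in WT. Lens epithelial markers summed to 483.2 to 585.1 FPKM in FNcKO and 521.2 to 565.4 FPKM in WT, and both sums overlapped between the genotypes. Each sum is mostly 1 gene, Crybb2 (90095 ± 4021 FPKM in FNcKO and 96926 ± 2013 FPKM in WT) in the fiber list and Igfbp7 (463.2 ± 48.1 FPKM in FNcKO and 468.5 ± 21.4 FPKM in WT; SD, n = 3 each) in the epithelial list. In limma 1 of 9 fiber markers (Cryga, described with the neighbours of Erbb4) and 1 of 7 epithelial markers rose and 0 fell. The epithelial one, named after its values were seen, was the amino acid transporter Slc7a5, at 10.3 ± 0.0763 FPKM in FNcKO and 6.91 ± 0.211 FPKM in WT (SD, n = 3 each; log2 change 0.52, SE 0.05, adjusted p = 0.0159). With 1 library left out its adjusted p in limma was 0.049 to 0.0972, under the threshold only without FNcKO replicate 1. Fn1, the targeted gene, was low in both, at 0.128, 0.0482 and 0.0942 FPKM in FNcKO replicates 1 to 3 and 0.135, 0.188 and 0.253 FPKM in WT replicates 1 to 3. Every FNcKO value of Fn1 was below every WT value, and its mean was 2.13-fold lower in FNcKO. The Fn1 values came from few fragments, about 8.17 to 22.5 in FNcKO and 34.2 to 53.3 in WT.

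Erbb4, a receptor for neuregulins, was more abundant in FNcKO lenses. It stood at 1.98, 2.74 and 2.33 FPKM in FNcKO replicates 1 to 3 and at 0.931, 0.691 and 0.943 FPKM in WT replicates 1 to 3. Every FNcKO library was above every WT library, and the lowest FNcKO value lay 2.1-fold above the highest WT value. The means were 2.35 ± 0.382 FPKM in FNcKO and 0.855 ± 0.142 FPKM in WT (SD, n = 3 each), 2.75-fold higher in FNcKO. The fitted log2 change was 0.85 (SE 0.12). The gene (ENSMUSG00000062209.15) spans 1.08 Mb on the minus strand of chromosome 1, from 68031884 to 69110787 (GRCm38), with up to 28 exons in GENCODE M21. With the estimated depths and its longest transcript of 12037 nucleotides, Erbb4 was read from about 508.2, 678.3 and 540.2 fragments in FNcKO and 345.0, 231.6 and 290.4 in WT. The table gives 1 value per gene, so the juxtamembrane and cytoplasmic isoforms of ErbB4 are not separated. Erbb4 passed the filter of 1 FPKM (mean over all libraries) through its FNcKO values, since its WT mean was below 1.

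Egfr, the receptor for EGF, TGF-alpha and amphiregulin, was less abundant in FNcKO lenses. It stood at 0.406, 0.289 and 0.318 FPKM in FNcKO replicates 1 to 3 and at 0.884, 1.05 and 0.825 FPKM in WT replicates 1 to 3. The highest FNcKO value was below the lowest WT value. The means were 0.338 ± 0.0613 FPKM in FNcKO and 0.921 ± 0.119 FPKM in WT (SD, n = 3 each), 2.73-fold lower in FNcKO. The log2 change was -0.52 (SE 0.10), and it was -1.45 as the log2 ratio of the means without a pseudocount. The gene (ENSMUSG00000020122.16, chromosome 11, 16752203 to 16913907, plus strand, GRCm38) lay below the filter, with about 60.4 to 88.3 fragments in FNcKO and 214.8 to 298.6 in WT.

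**Figure D1:**
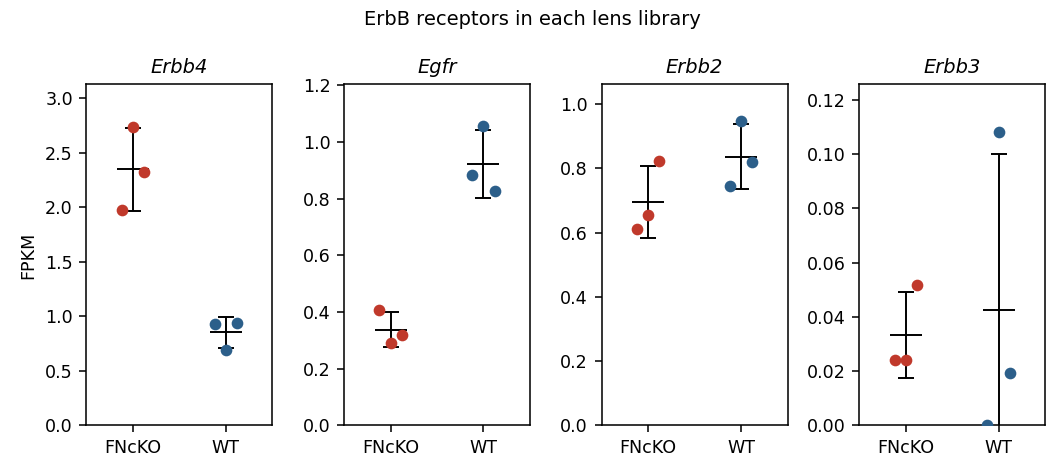
FPKM of the 4 ErbB receptors in each library, with FNcKO left of WT. Each point is a library and the bars are the mean ± SD (n = 3 each), with a separate vertical axis for each gene. Erbb4 is higher in FNcKO (1.98 to 2.74 FPKM) than in WT (0.691 to 0.943 FPKM), Egfr is lower in FNcKO, and the groups of Erbb2 and Erbb3 overlap.

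The 250 bases before the RefSeq start of these 2 receptor genes are shown because their levels differed in opposite directions. Capitals mark CG dinucleotides, the sites of DNA methylation in mammals (GRCm38.p6; Erbb4 at chr1:69108060-69108309, minus strand, and Egfr at chr11:16751953-16752202, plus strand; 5′ to 3′).
Erbb4: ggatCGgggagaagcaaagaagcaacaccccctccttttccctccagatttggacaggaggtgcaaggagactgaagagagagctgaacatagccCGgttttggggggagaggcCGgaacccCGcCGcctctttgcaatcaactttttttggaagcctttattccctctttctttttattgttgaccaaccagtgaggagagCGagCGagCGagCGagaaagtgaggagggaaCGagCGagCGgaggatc
Egfr: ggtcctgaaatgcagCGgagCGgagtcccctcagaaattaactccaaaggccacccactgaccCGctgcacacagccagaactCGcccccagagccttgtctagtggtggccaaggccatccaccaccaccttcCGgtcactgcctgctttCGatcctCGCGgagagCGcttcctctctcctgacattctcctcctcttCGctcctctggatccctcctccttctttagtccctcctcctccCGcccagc
The Erbb4 window lies inside the span of the gene given above, 2478 bases from its 5′ end, while the Egfr window lies just before its gene. Neither window overlaps an exon of GENCODE M21. Erbb4 had 12 CG dinucleotides and 54% G or C, and Egfr had 11 and 60.8%. The median over 32841 RefSeq promoter windows of the same length was 6 and 52.4%. A GC box, GGGCGG on either strand, occurred once in the Egfr window and was not found in that of Erbb4. It was present in 32.7% of all windows. TATAAA on either strand was found in neither, against 12.4% of all windows. These are counts of letters, and no methylation or binding was measured.

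Erbb2, the partner receptor, stood at 0.610, 0.656 and 0.822 FPKM in FNcKO replicates 1 to 3 and at 0.745, 0.946 and 0.818 FPKM in WT replicates 1 to 3. The groups overlapped, with means of 0.696 ± 0.111 FPKM in FNcKO and 0.836 ± 0.102 FPKM in WT (SD, n = 3 each). The sign of its log2 change (-0.12, SE 0.10) changed with the scaling between libraries. The row of Mien1, on the other strand, shares the last bases of the Erbb2 locus, and the use of strand in counting is not given. Erbb3, the second neuregulin receptor, was close to the detection limit at 0.0239, 0.0242 and 0.0516 FPKM in FNcKO and 0, 0.108 and 0.0194 FPKM in WT. These correspond to about 2.94 to 5.88 fragments in FNcKO and 0 to 17.8 in WT, too few to show a small difference in Erbb3.

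The same FPKM values, of members chosen with this contrast known, are given next as shares and ratios, again with no test. Erbb4 took 65.5%, 73.9% and 66.2% of the summed FPKM of the 4 receptors in FNcKO replicates 1 to 3, and 36.4%, 24.7% and 36.2% in WT replicates 1 to 3. Egfr took 10.1% ± 2.99 in FNcKO and 34.6% ± 2.99 in WT, and Erbb2 took 20.4% ± 2.84 in FNcKO and 31.4% ± 2.36 in WT (SD, n = 3 each). A share also falls when that of another receptor rises, and the FPKM of Erbb2 itself overlapped between the groups. The sum itself was 3.42 ± 0.357 FPKM in FNcKO and 2.66 ± 0.127 FPKM in WT (SD, n = 3 each). Within a library, where the scaling between libraries cancels, Erbb4 was 4.87, 9.49 and 7.32 times Egfr in FNcKO replicates 1 to 3. In WT replicates 1 to 3 it was 1.05, 0.656 and 1.14 times Egfr. In FNcKO lenses Erbb4 stood above Erbb2 and Erbb2 above Egfr, with no overlap between neighbours. In WT lenses the ranges of Egfr (0.825 to 1.05 FPKM), Erbb4 (0.691 to 0.943) and Erbb2 (0.745 to 0.946) overlapped. Within a library Egfr was 1.19, 1.11 and 1.01 times Erbb2 in WT replicates 1 to 3. Erbb3 was below the other 3 in every library.

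**Figure D2:**
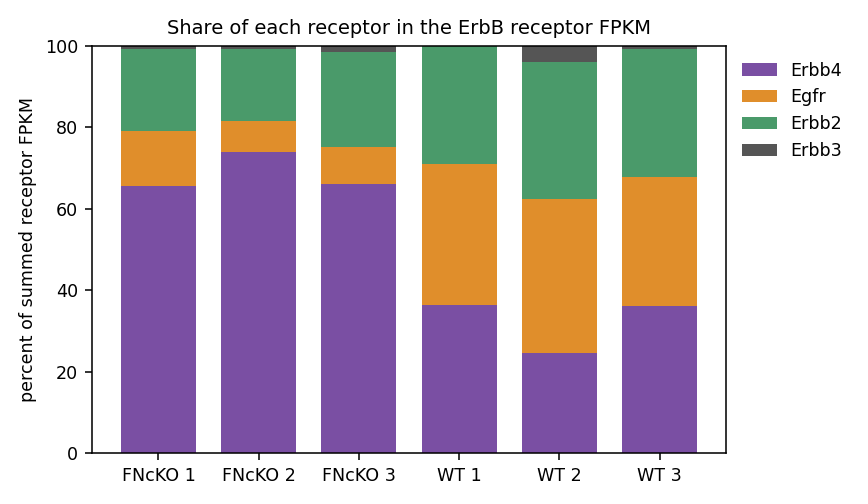
Percent of the summed FPKM of the 4 ErbB receptors taken by each receptor, with a bar for each library and FNcKO libraries left of WT libraries. Erbb4 takes 65.5% to 73.9% in FNcKO libraries and 24.7% to 36.4% in WT libraries.

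Of the neuregulins, Nrg4, a ligand of ErbB4, was the most abundant of the 10 members. It stood at 4.13, 4.01 and 3.09 FPKM in FNcKO replicates 1 to 3 and at 2.94 and 2.76 FPKM in WT replicates 1 and 3. WT replicate 2 has no value for this gene, because its column is empty from chromosome 9, position 51213690, to the end of the table. The lowest FNcKO value lay just above the highest of the 2 WT values. The means were 3.74 ± 0.569 FPKM in FNcKO (SD, n = 3) and 2.85 ± 0.126 FPKM in WT (SD, n = 2), a log2 change of 0.29 (SE 0.12) from a fit without WT replicate 2. Nrg4 (chromosome 9, 55220222 to 55283649, GRCm38) shares its 3′ end with Fbxo22 on the other strand, which stood at 2.67 to 4.76 FPKM in FNcKO and 4.31 to 4.44 FPKM in WT. Nrg1, a ligand of ErbB3 and ErbB4, was low in both groups, at 0, 0.0486 and 0.0518 FPKM in FNcKO and 0.0971, 0.0366 and 0.0778 FPKM in WT. The FPKM values overlapped between the groups. They came from few fragments, about 0 to 5.3 in FNcKO and 5.4 to 15.9 in WT.

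Tgfa, Egf and Areg, ligands of the EGF receptor, were low. Tgfa stood at 0.0631, 0.234 and 0.227 FPKM in FNcKO replicates 1 to 3 and at 0.269, 0.222 and 0.375 FPKM in WT replicates 1 to 3. The FNcKO values were lower on average and the groups overlapped (0.175 ± 0.0967 FPKM in FNcKO and 0.289 ± 0.0784 FPKM in WT, SD, n = 3 each). Egf stood at 0.116, 0.0882 and 0.0669 FPKM in FNcKO and 0.098, 0.175 and 0.0251 FPKM in WT, and the FNcKO values lay inside the range of the WT values. Areg was listed at 0 in all 6 libraries. At the estimated depths 3 fragments of Areg would be 0.136 to 0.151 FPKM in FNcKO and 0.0944 to 0.114 FPKM in WT, which covers counting error only.

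Errfi1, which binds the kinase domain of ErbB receptors and is induced by their activity, stood at 1.43, 1.61 and 1.22 FPKM in FNcKO replicates 1 to 3. In WT replicates 1 to 3 it stood at 1.01, 2.12 and 1.47 FPKM. All 3 FNcKO values lay inside the range of the WT values, and the means were 1.42 ± 0.193 FPKM in FNcKO and 1.53 ± 0.562 FPKM in WT (SD, n = 3 each). Its log2 change was -0.05 (SE 0.17).

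**Figure D3:**
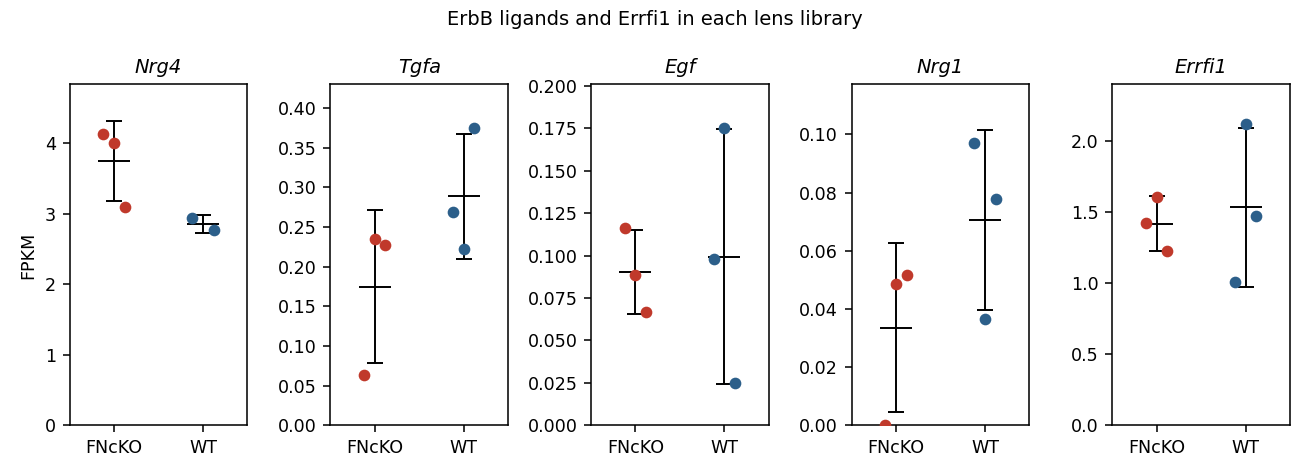
FPKM of 4 ErbB ligands and of Errfi1 in each library, with FNcKO left of WT. Each point is a library and the bars are the mean ± SD (n = 3, or 2 for Nrg4 in WT), with a separate vertical axis for each gene. Nrg4 lies at 3.09 to 4.13 FPKM in FNcKO and 2.76 to 2.94 FPKM in WT, while the groups of the other 4 genes overlap.

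Of the 10 members, 3 had groups that did not overlap, with Erbb4 and Nrg4 higher and Egfr lower in FNcKO. Groups did not overlap for 16.4% of the 27623 rows above 0 in some library and for 25.6% of the 10149 genes tested. Since the members were chosen with this contrast known, nothing is read from that count. The filter of 1 FPKM was passed by Erbb4, Nrg4 and Errfi1, and the other 7 members were below it. From high to low, the mean levels in FNcKO ran Nrg4, Erbb4, Errfi1, Erbb2, Egfr, Tgfa, Egf, Nrg1 and Erbb3, and in WT Nrg4, Errfi1, Egfr, Erbb4, Erbb2, Tgfa, Egf, Nrg1 and Erbb3. Between neighbours in the FNcKO order, Nrg4, Erbb4, Errfi1, Erbb2, Egfr and Tgfa were each separated without overlap, while Egf overlapped with Tgfa, Nrg1 was separated from Egf, and Nrg1 overlapped with Erbb3. In WT, Nrg4 was separated from Errfi1, the values of Errfi1, Egfr, Erbb4 and Erbb2 overlapped, Erbb2 was separated from Tgfa, Tgfa from Egf, and Egf, Nrg1 and Erbb3 overlapped.

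The rest of the ErbB pathway was examined in 7 lists of 98 genes, of which 70 were tested. In limma, 0 of the 70 passed the adjusted threshold of 0.05, against 1.89% of all 10149 genes tested, and 7 were under 0.05 without adjustment, where 18.1% of the genes tested were. Log2 changes were above 0 for 33 and under 0 for 37 of the 70, with a median of -0.01, and the median over all genes tested was -0.04. The largest single changes were 0.38 for Adam10 and -0.27 for Psenen. For some single pathway genes below the groups did not overlap, in either direction, as they did not for 25.6% of all 10149 genes tested.

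Of the other 6 ErbB ligands, Hbegf, an EGF receptor and ErbB4 ligand, was the only one tested. It stood at 2.39 ± 0.223 FPKM in FNcKO and 2.46 ± 0.289 FPKM in WT (SD, n = 3 each; adjusted p = 0.912). Its level was above that of Tgfa, Egf and Nrg1 in every library. The neuregulin Nrg2 stood at 0.621 ± 0.162 FPKM in FNcKO and 1.02 ± 0.293 FPKM in WT (SD, n = 3 each), and the groups overlapped. Btc and Nrg3 were below 0.2 FPKM in every library, and Ereg and Epgn were listed at 0 in all 6.

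ErbB ligands are cut from the cell surface by ADAM proteases, and ErbB4 itself is cut by an ADAM protease and then by gamma-secretase. Of 14 genes of this machinery, 9 were tested, 0 passed in limma and 3 had an unadjusted p under 0.05. Adam10, a sheddase of EGF-type ligands, stood at 12.4, 14.4 and 13.5 FPKM in FNcKO replicates 1 to 3 and at 10.4 and 9.80 FPKM in WT replicates 1 and 3 (log2 change 0.38, SE 0.09, adjusted p = 0.131). The groups did not overlap, and WT replicate 2 has no value. Psenen, a subunit of gamma-secretase, stood at 18.9 ± 1.92 FPKM in FNcKO and 22.9 ± 1.43 FPKM in WT (SD, n = 3 each; adjusted p = 0.22). Its groups did not overlap either, with every FNcKO value lower.

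Of 21 adaptors and proximal effectors, 16 were tested, 0 passed in limma and 2 had an unadjusted p under 0.05. Shc1, an adaptor that links activated ErbB receptors to RAS, stood at 14.5, 13.9 and 12.1 FPKM in FNcKO and 10.1, 11.3 and 11 FPKM in WT replicates 1 to 3 (log2 change 0.29, SE 0.09, adjusted p = 0.175). Its groups did not overlap. Vav2, a guanine nucleotide exchange factor, had a log2 change of 0.17 (SE 0.07, adjusted p = 0.262), and Ptpn11, the phosphatase SHP2, one of -0.15 (SE 0.07, adjusted p = 0.359). The groups of Vav2 (higher in FNcKO) and of Ptpn11 (lower in FNcKO) did not overlap.

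All 13 genes of the RAS and ERK cascade were tested, and 12 of 13 genes of the PI3K and AKT branch. In limma 0 passed in either list and 0 had an unadjusted p under 0.05. The median log2 change was -0.07 in the RAS and ERK list, with 10 of 13 under 0, and 0.05 in the PI3K and AKT list, with 8 of 12 above 0. Akt1 stood at 14.5 ± 1.9 FPKM in FNcKO and 13.4 ± 0.696 FPKM in WT (adjusted p = 0.668; SD, n = 3 each). Pik3r1, the regulatory subunit of PI3K, had an adjusted p of 0.388. Map2k2, a MEK kinase, stood at 27.5 ± 1.37 FPKM in FNcKO and 30.1 ± 1.13 FPKM in WT (adjusted p = 0.368), and Hras at 21.8 ± 3.52 FPKM in FNcKO and 24.9 ± 1.02 FPKM in WT (adjusted p = 0.468; SD, n = 3 each). Nras and Braf, with the smallest p of the cascade, had adjusted p = 0.352 and 0.355.

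Of 18 genes of receptor turnover and inhibition, 16 were tested, 0 passed in limma and 2 had an unadjusted p under 0.05. Ptprj, a receptor phosphatase that dephosphorylates the EGF receptor, stood at 3.59, 3.89 and 3.9 FPKM in FNcKO and 2.87, 3.2 and 3.05 FPKM in WT replicates 1 to 3 (log2 change 0.25, SE 0.06, adjusted p = 0.134). Socs5, which promotes EGF receptor degradation, had a log2 change of 0.21 (SE 0.07, adjusted p = 0.195). The FNcKO and WT values of both did not overlap, with FNcKO higher. Nedd4, a ubiquitin ligase, was the most abundant of the list at 80 ± 3.52 FPKM in FNcKO (SD, n = 3) and 88.4 ± 1.96 FPKM in WT (SD, n = 2; adjusted p = 0.41). The values of Nedd4 did not overlap either, with FNcKO lower. Hgs, which sorts ubiquitinated receptors in endosomes, had adjusted p = 0.881.

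Of 13 early targets of growth factor signalling, 3 were tested and 10 were below the filter. In limma 0 of the 3 passed and 0 had an unadjusted p under 0.05. Ccnd1, cyclin D1, stood at 9.13 ± 0.655 FPKM in FNcKO and 9.52 ± 0.338 FPKM in WT (adjusted p = 0.727), Jun at 4.6 ± 0.232 FPKM in FNcKO and 4.62 ± 0.206 FPKM in WT (adjusted p = 0.967) and Etv5 at 3.81 ± 0.631 FPKM in FNcKO and 3.64 ± 0.656 FPKM in WT (adjusted p = 0.883; SD, n = 3 each).

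**Figure D4:**
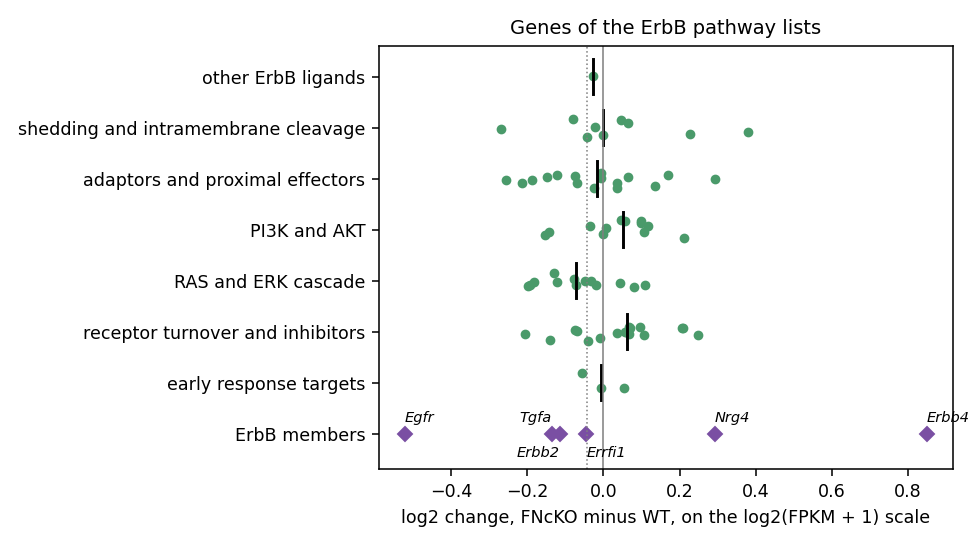
Log2 change (FNcKO minus WT, log2(FPKM + 1) scale) of each tested gene of the 7 pathway lists, with a vertical bar at each list's median, and of 6 ErbB members below them. The grey lines mark 0 and, dotted, the median over all genes tested (-0.04). The pathway genes lie between -0.27 and 0.38, and the members run from Egfr (-0.52) to Erbb4 (0.85). The members were chosen with this contrast known, so their span is no measure for the pathway genes. Egfr, Erbb2 and Tgfa lie below the filter and come from a second fit.

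Erbb4 and Fn1 lie on the same chromosome, 3.55 Mb apart from start to start and 2.47 Mb from the end of Erbb4 to the start of Fn1, while the other 9 members lie on other chromosomes. Of 31 other tested genes within 5 Mb of Erbb4, 3 passed limma's test (9.68%), against 1.89% of all genes tested. Map2, a microtubule-associated protein, fell to 1.60, 1.29 and 1.03 FPKM in FNcKO replicates 1 to 3, against 5.44, 5.75 and 5.77 FPKM in WT replicates 1 to 3 (log2 change -1.53, SE 0.10, adjusted p = 0.00306). The gamma crystallin genes Cryge and Cryga rose, with log2 changes of 0.93 (SE 0.13, adjusted p = 0.0331) and 1.16 (SE 0.18, adjusted p = 0.0422). Gamma crystallins are a family of closely related genes, and how reads shared between them were counted is not given in the sources used here, so these values are uncertain. With any 1 library left out, Map2 still passed, and Cryge and Cryga did not. The median log2 change of the 31 genes was 0.00, with 15 above 0 and 16 under 0.

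The nearest tested genes on each side of Erbb4 did not pass. Lancl1, 0.993 Mb before it, stood at 1.18 ± 0.223 FPKM in FNcKO and 1.35 ± 0.0537 FPKM in WT (SD, n = 3 each; adjusted p = 0.601). Atic, the only tested gene between Erbb4 and Fn1 among 13 rows there, lies 2.45 Mb after Erbb4 and stood at 3.55 ± 0.275 FPKM in FNcKO and 3.68 ± 0.561 FPKM in WT (SD, n = 3 each; adjusted p = 0.896). Map2, which fell, lies between the gamma crystallin genes and Erbb4. Strain of the chromosome segment around the targeted gene was not measured here.

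**Figure D5:**
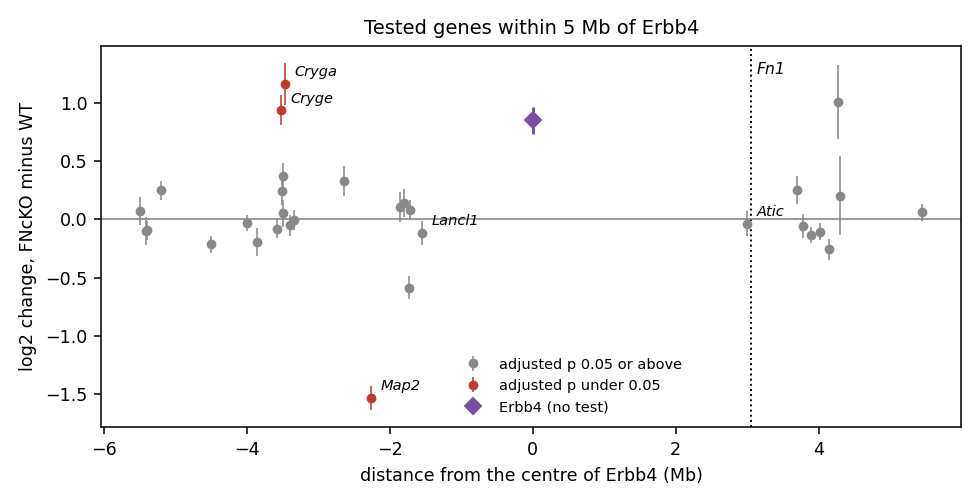
Log2 change (FNcKO minus WT, log2(FPKM + 1) scale, bars are SE) of the tested genes within 5 Mb of Erbb4, against their distance from the centre of Erbb4 in Mb. Red points passed limma's test, the diamond is Erbb4 and the dotted line is the position of Fn1. Map2 (-1.53) lies far below the other genes, and Cryga (1.16) and Cryge (0.93) lie above most of them.

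Over the 6 libraries, genes among the 5 of 9406 compared whose log2(FPKM + 1) values followed Erbb4 most closely were Rcan2 (Pearson r = 0.998), Myl12b (0.994), Tars (0.992) and Sh3bp4 (0.991). Rcan2, a regulator of calcineurin, stood at 17.8, 20.9 and 19.5 FPKM in FNcKO replicates 1 to 3 and at 12.9, 12.3 and 13.1 FPKM in WT replicates 1 to 3. Sh3bp4, an endocytic adaptor, stood at 1.99, 2.51 and 2.11 FPKM in FNcKO and 1.22, 0.934 and 1.03 FPKM in WT. All 4 had a higher mean in FNcKO, and these correlations rest largely on the 2 genotype levels that the libraries share. After the genotype means were subtracted, the closest named genes were Rbm20 (0.997), Emp2 (0.996), Pogz (0.996), Map3k1 (0.993) and Bin1 (0.993), and none of the 4 was among them. With 6 libraries and this many genes, values of this size are a description.

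Of the marker lists of tissues beside the lens, those of ciliary body and iris and of pigment cells had sums that did not overlap between the genotypes. The sums of the other lists overlapped. For single genes, the groups did not overlap for 25.6% of the 10149 genes tested. All 5 ciliary body and iris markers had log2 changes above 0 (median 0.51), and the 4 with a value in every library summed to 61.1 to 80.4 FPKM in FNcKO and 25.8 to 39.7 FPKM in WT. Optc, opticin, was the largest part of these sums, at 42.9 ± 9.93 FPKM in FNcKO and 18.3 ± 3.58 FPKM in WT (SD, n = 3 each; adjusted p = 0.0682). In limma 1 of the 5 passed, the water channel Aqp1, named after its values were seen, at 15.6 ± 3.96 FPKM in FNcKO and 5.27 ± 0.991 FPKM in WT (SD, n = 3 each; log2 change 1.39, SE 0.21, adjusted p = 0.0432). Pigment cell markers summed to 6.67 to 8.46 FPKM in FNcKO and 11.1 to 18.7 FPKM in WT, with 5 of 7 below 1 FPKM. In limma 0 of the 2 tested pigment markers passed. Ttr was the largest part of the pigment sums, at 3.68 ± 0.756 FPKM in FNcKO and 8.85 ± 2.87 FPKM in WT (SD, n = 3 each; adjusted p = 0.0887 in limma). The 7 of 8 photoreceptor markers with a value in every library summed to 31.1 to 32.4 FPKM in FNcKO and 20.9 to 58.8 FPKM in WT, and 7 of the 8 log2 changes were under 0. The marker left out of the sum, Gnat1, the rod transducin subunit, has no value in WT replicate 2 and was the 1 of 8 that passed in limma, lower in FNcKO at 9.42 ± 0.503 FPKM (SD, n = 3) against 20.6 ± 2.34 FPKM in WT (SD, n = 2; log2 change -1.05, SE 0.10, adjusted p = 0.0215). Neuron and glia markers summed to 15.6 to 22.7 FPKM in FNcKO and 18.5 to 25.9 FPKM in WT, and of the 5 tested Map2, described above, passed in limma. With 1 library left out the adjusted p in limma was 0.0309 to 0.155 for Aqp1, under the threshold only without FNcKO replicate 1, and 0.0406 to 0.105 for Gnat1, under it only when WT replicate 2, empty for this gene, was the one left out. The cells that made the RNA of Aqp1, Optc and the other markers, in the lens or beside it, were not identified. The part of these tissues in the Erbb4 and Egfr values was not tested. Endothelial markers summed to 1.35 to 2 FPKM in FNcKO and 1.17 to 1.38 FPKM in WT with Cdh5 listed at 0. Each of 6 leukocyte markers averaged below 1 FPKM over the 6 libraries, with Cd3e listed at 0. Of 4 corneal markers, Krt12 was listed at 0 and Aldh3a1 stood at 32.7 ± 16.6 FPKM in FNcKO and 28.2 ± 2.54 FPKM in WT (SD, n = 3 each).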

How the data were processed

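FPKM values, 1 column per library, were computed and deposited by the authors. The builds mm10 and GRCm38.p5 and the tools Cuffdiff 2.2.1, TopHat2 2.1.0, cutadapt 1.12 and FastQC are named per the submitters' processing notes. The sources used here do not give their order, the annotation, strand use or scaling between libraries. WT replicate 2 has no value in 3578 of 41449 rows (8.63%), 1 value was unreadable, and 27 symbols had become dates. Start positions were raised by 1, after which Fn1 starts at the RefSeq position.

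Log2(FPKM + 1) of 10149 genes averaging 1 FPKM or more was compared between genotypes with limma 3.58.1 in R 4.3.3 (trend, two-sided, Benjamini-Hochberg over all genes tested, threshold 0.05). Members below the filter were added to a second fit for their log2 changes. The labels do not say which animals each library came from, so p-values measure the spread between these libraries. Depth, which enters no test, was estimated by searching for the depth at which low values of single-exon genes become whole fragments (200 nucleotides taken off each length). At the best depth 64.4% to 72.9% of these values were whole to within 0.15, where the median over all depths searched was 21.9% to 26.3%.

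The members and lists were chosen with earlier results of these data known. Genes named were the members, Fn1, the called or 2 lowest-p and the 2 most abundant genes of each pathway list, called and nearest neighbours of Erbb4, the 5 genes most like Erbb4, and abundant markers of each tissue. Some genes that this rule names are not reported here. RefSeq promoters (GRCm38.p6) were found for 8 of 10 members.

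Alternatives were a pseudocount of 0.1, no filter, 4 scalings between libraries, a replicate block, and leaving out each library.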

Additional observations from a re-analysis of the deposited data

How the results depend on the processing

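The log2 change of Erbb4, a member chosen with this contrast known, was above 0 under all 13 alternatives. It was 1.36 with a pseudocount of 0.1, 1.0 with the same FPKM total and 1.11 with the same total without crystallins, and it ran from 0.77 to 0.93 with 1 library left out. Egfr stayed under 0 (from -1.23 to -0.37) and Nrg4 above 0 under all 13. WT replicate 2 has no Nrg4 value, so leaving this library out did not change the Nrg4 log2 change. The groups of Erbb4, Egfr and Nrg4 did not overlap. Leaving out a library or changing the pseudocount therefore could not change their signs, and nothing is read from these signs. Erbb2 (from -0.24 to 0.07), Erbb3, Egf, Errfi1, Nrg1 and Tgfa changed sign under at least 1. No pathway gene passed under any alternative.

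The number of genes past the threshold was 192 (87 higher and 105 lower) as deposited. It was 101 with no filter, 89 with the same FPKM total (63 higher, 26 lower), 86 with the same total without crystallins (66 and 20), 242 with median-ratio scaling (140 and 102) and 197 with quantile normalization (119 and 78). Both same-total scalings moved the median log2 change from -0.04 to 0.15 and 0.29. Without FNcKO replicate 1, 2 or 3 it was 117, 75 or 65, and without WT replicate 1, 2 or 3 it was 37, 48 or 56. The number of called neighbours of Erbb4 was 3, and it was 1 with no filter, with quantile normalization and with any 1 library left out, and 0 in the replicate block fit.

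With the replicate number as a block, 14 genes passed, and the log2 change of Erbb4 stayed at 0.85. Deviations of same-numbered libraries from their genotype means correlated at -0.03, -0.05 and -0.05, so same-numbered libraries did not deviate alike. The labels do not say whether they were prepared together, and 3 libraries per genotype are too few to settle it.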
